A study of Mus musculus with 10 samples.

Results

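The genes described here are nuclear genes for subunits of mitochondrial complexes II to V and for cytochrome c. They were chosen by symbol from the deposited table of heart FPKM (fragments scaled by transcript length and by the total mapped), after its gene identifiers had been mapped to the GENCODE vM21 annotation. Protein-coding genes named Sdha, Sdhb, Sdhc, Sdhd, Cyc1 or Cycs, or with a symbol beginning with Uqcr, Cox4 to Cox8 or Atp5, were taken. The rule gave 50 of the 55335 genes in the table: 4 of complex II, 9 of complex III, 1 of cytochrome c, 18 of complex IV and 18 of complex V. Of these, 46 averaged at least 1 FPKM over the 10 samples and were tested, and 4 lay below that level.

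Complex II, succinate dehydrogenase, oxidises succinate in the citric acid cycle and passes the electrons to ubiquinone. Complex III hands them on to cytochrome c, complex IV (cytochrome c oxidase) reduces oxygen with them, and complex V uses the resulting proton gradient to make ATP. Heart muscle is rich in these complexes, and several complex IV subunits exist as a form made mainly in heart and skeletal muscle and a form made in most tissues.

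The samples were hearts of male wild-type mice: 5 from offspring of dams given anti-Müllerian hormone (AMH) in pregnancy (PAMH), and 5 from offspring of dams given phosphate-buffered saline (control). The series is about hearts in mouse models of polycystic ovary syndrome. Age, strain and the timing of the treatment are not given in the labels, and neither the litter nor the number of animals behind a sample is stated. The p-values therefore reflect only how far these samples spread, in part perhaps technically.

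The FPKM summed to 654350 to 713055 in PAMH and 691934 to 717453 in control samples, and their sequencing depth is not known. All 8 cardiomyocyte markers were above the filter and none passed the test, with summed levels of 8887 to 14786.5 FPKM in PAMH and 10054 to 12541 FPKM in control hearts. Genes above 0 numbered 16113 to 20625 in PAMH and 19664 to 21097 in control samples, with the fewest in PAMH replicate 4. That sample also had the highest erythroid marker sum, in ranges of 97.3 to 863 FPKM in PAMH and 112 to 437 FPKM in control hearts. In whole tissue, fewer cells of a type and less RNA per cell cannot be told apart.

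Of the tested mRNAs for complexes II to V and cytochrome c, 1 passed the test. A gene that did not pass is not thereby shown to be unchanged. Cox6a1, the form of complex IV subunit 6a made in most tissues, was higher in PAMH hearts, and no other of the 46 tested genes passed the test in either direction (limma on log2(FPKM + 1), Benjamini-Hochberg adjusted p under 0.05 over 9439 genes). Among all tested genes 6.19% were called, 4.95% as higher and 1.24% as lower. The only gene among the 46 whose groups did not overlap was Cox6a1, whereas 8.44% of all tested genes had groups that did not overlap (6.74% with PAMH above). At an unadjusted p under 0.05, 2 of the 46 passed, Cox6a1 as higher and Cycs as lower, against 24.0% of all tested genes.

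Log2 fold changes of PAMH over control ran from -0.18 (Cycs) to 0.45 (Cox6a1). They were positive for 42 of the 46 genes, with a median of 0.10, beside 67.3% positive and a median of 0.07 over all tested genes. The 4 genes with a negative value were Cycs, Uqcr10, Atp5o and Cox6a2. The median was 0.11 for the 4 genes of complex II, 0.10 for 9 of complex III, 0.12 for 15 of complex IV and 0.10 for 17 of complex V. This small common offset depended on the scaling and on 1 library. The number of positive genes was 45 with every sample rescaled to the same FPKM sum, 28 with median ratio scaling and 20 with quantile normalization. The share of all tested genes that was positive in these settings was 74.1%, 51.9% and 50.04%. Median ratio scaling and quantile normalization align the samples over all genes by construction. Without PAMH replicate 4 the number of positive genes was 36 of 46, with a median of 0.04. In that setting 67.4% of all tested genes were positive, with a higher median of 0.07. The median over all genes was 0.01 with median ratio scaling and 0.11 at equal sums. Scaling also moved the split over all genes, which was 467 higher and 117 lower as deposited, 214 and 189 with median ratio scaling, and 234 and 246 with quantile normalization.

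**Figure D1:**
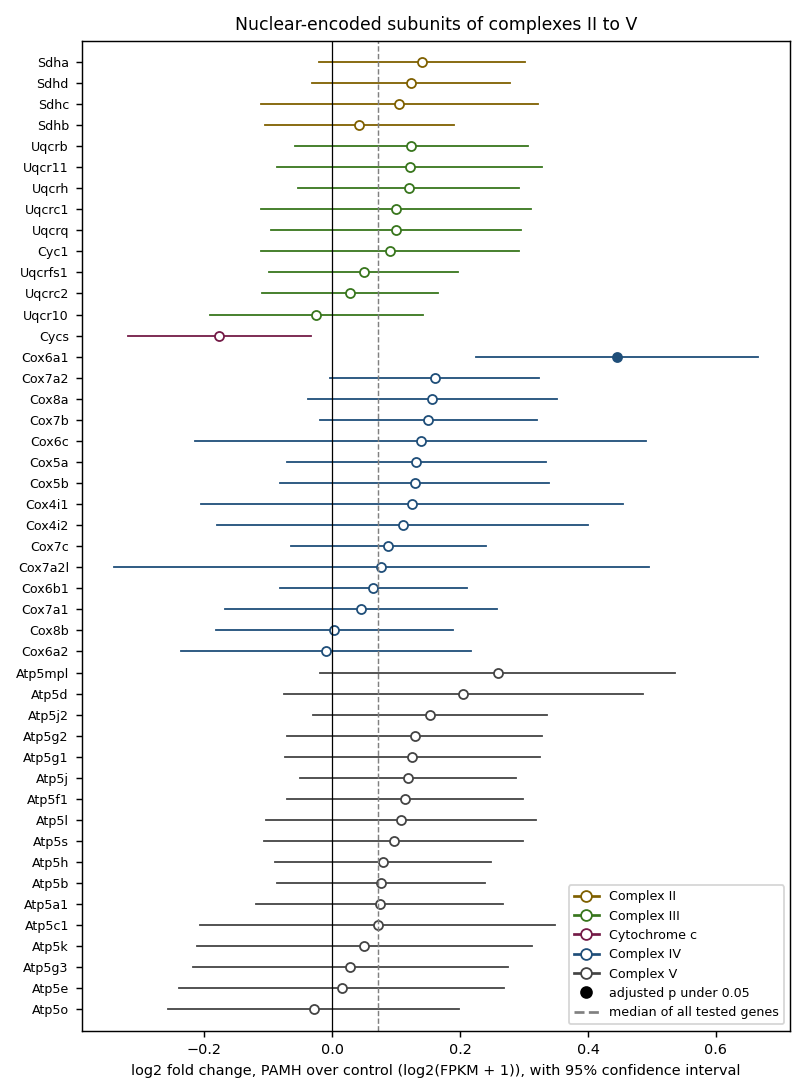
Log2 fold change (PAMH over control, on log2(FPKM + 1)) of the 46 tested genes with 95% confidence intervals, by complex. Only Cox6a1, at 0.45, passed the adjusted p threshold (filled point), and the dashed line marks the median of all tested genes, 0.07.

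Complex IV held the gene that passed the test. Cox6a1 and Cox6a2 encode the alternative forms of subunit 6a, a nuclear subunit of cytochrome c oxidase involved in its regulation, and Cox6a2 is the form of heart and skeletal muscle. Cox6a1 lies at chr5:115345642-115348981 (mm10, minus strand), with no other gene listed as overlapping it and no pseudogene of its name in the table (copies under other names were not looked for). It had 69.0, 70.0, 65.0, 96.9 and 73.8 FPKM in PAMH hearts, against 52.9, 57.2, 49.2, 58.1 and 54.0 FPKM in control hearts. Every PAMH heart was above every control heart, and PAMH replicate 4 was highest. The means were 74.9 ± 12.7 FPKM in PAMH and 54.3 ± 3.56 FPKM in control hearts (SD, n = 5 each), a log2 fold change of 0.45 (SE 0.10, adjusted p = 0.0236). Without PAMH replicate 4 the log2 fold change was 0.35 with a limma adjusted p of 0.0136. The adjusted p exceeded 0.05 when control replicate 1, 3 or 5 or PAMH replicate 5 was left out (0.0537 to 0.0710), with no filter (0.0752) and with median ratio scaling (0.0650).

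Cox6a2, at chr7:128205435-128206387 (mm10, minus strand), was the most abundant of the genes described here. It had 782, 838, 711, 1129.8 and 850.3 FPKM in PAMH hearts, against 873, 920.1, 857, 814 and 828 FPKM in control hearts. The groups overlapped, and PAMH replicates 3 and 4 were the lowest and the highest of all 10 samples. Its means were 862 ± 159 FPKM in PAMH and 859 ± 41.5 FPKM in control hearts (SD, n = 5 each), with a log2 fold change of -0.01 (95% confidence interval -0.24 to 0.22, adjusted p = 0.965).

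Within each heart the ratio of the muscle form to the general form was therefore compared as well. The FPKM ratio of Cox6a2 to Cox6a1 was 11.3, 11.98, 10.9, 11.7 and 11.5 in PAMH hearts, against 16.5, 16.1, 17.4, 14.0 and 15.3 in control hearts. All 5 PAMH ratios lay below all 5 control ratios, and PAMH replicate 4, highest for both genes, had a ratio inside the narrow PAMH range. The mean ratio was 11.5 ± 0.388 in PAMH and 15.9 ± 1.28 in control hearts (SD, n = 5 each). On the log2 scale it was 3.50 ± 0.04998 in PAMH and 3.96 ± 0.117 in control hearts, a difference of -0.46. The exact 2-sided permutation p was 0.00794, the smallest that 5 against 5 samples can give, and the adjusted p over the 6 isoform pairs was 0.0476. A seventh pair on the list, Cox6b2 and Cox6b1, was not tested because Cox6b2 was below the filter, and over 7 pairs the same p would be adjusted to 0.0556 if no other pair reached it. A ratio within a sample shows that the genes differed unequally and is not independent of the Cox6a1 result. With PAMH replicates 4 and 5 both left out the difference was -0.47, with an exact permutation p of 0.0179 and an adjusted p of 0.107 over the 6 pairs. That p is the smallest 3 against 5 samples can give (56 regroupings), so the missed threshold says nothing about stability. Among the markers of other cell types, 5 genes passed the test (Acta2, Cd68, Cidea and Upk3b higher, Cldn5 lower). Over all tested genes, 6.19% were called. None of the 6 fibroblast, 5 erythroid and 1 atrial markers tested passed. On the lists of Acta2, Cd68 and Cldn5, with 5, 5 and 6 genes tested, the others did not pass. Cidea and Upk3b were the only tested genes of their lists. The part of these 5 genes in the Cox6a1 difference was not tested.

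**Figure D2:**
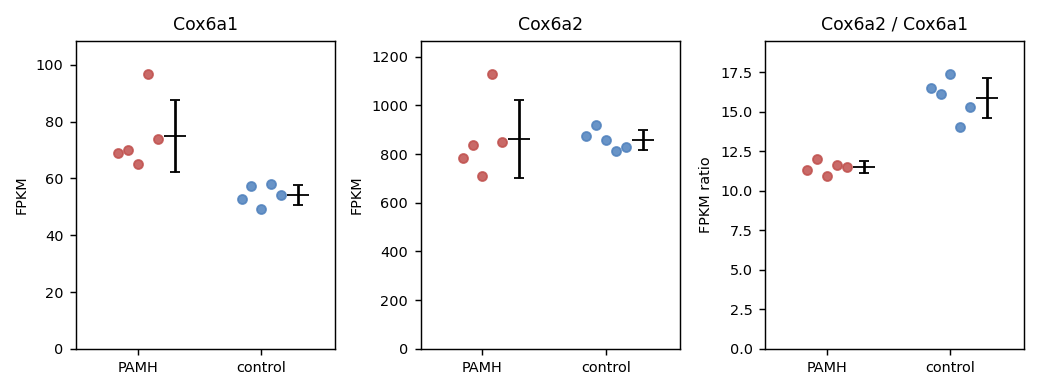
FPKM of Cox6a1 (left) and Cox6a2 (middle) and their FPKM ratio (right) in 5 PAMH and 5 control hearts, with a point for each sample and bars for the mean ± SD. The ratio of Cox6a2 to Cox6a1 was 10.9 to 11.98 in PAMH and 14.0 to 17.4 in control hearts, without overlap.

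The promoter windows of 4 of these genes are shown because Cox6a1 and Cycs had the highest and the lowest log2 fold change and Cox8a and Cox8b are a general and a muscle form of 1 subunit. The sequences, from 250 bases before to 50 bases after the gene start, are from RefSeq (GRCm38.p6), are read 5′ to 3′ on the gene's own strand and are written in lower case. Capitals mark matches on either strand to the motifs GCGC, any base and TGCGC in a row (NRF1), CCGGAAG (GABPA and other ETS factors), AAGATGGC (YY1), GGGCGG (SP1) and TNAAGGTCA (ERRA), and no match shown overlaps another. All 4 genes lie on the minus strand.
Cox6a1 (chr5:115348909-115349208): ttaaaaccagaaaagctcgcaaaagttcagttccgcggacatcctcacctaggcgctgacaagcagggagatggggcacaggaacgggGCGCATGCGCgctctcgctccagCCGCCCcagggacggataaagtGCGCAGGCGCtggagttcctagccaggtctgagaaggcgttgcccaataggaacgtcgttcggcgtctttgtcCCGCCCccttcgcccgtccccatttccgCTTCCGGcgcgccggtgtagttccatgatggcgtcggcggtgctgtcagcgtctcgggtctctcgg
Cycs (chr6:50566520-50566819): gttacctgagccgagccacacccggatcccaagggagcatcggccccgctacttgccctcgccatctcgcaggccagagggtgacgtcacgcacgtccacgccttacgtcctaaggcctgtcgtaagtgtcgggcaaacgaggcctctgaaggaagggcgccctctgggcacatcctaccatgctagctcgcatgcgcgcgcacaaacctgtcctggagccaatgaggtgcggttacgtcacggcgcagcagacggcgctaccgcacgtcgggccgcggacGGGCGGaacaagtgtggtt
Cox8a (chr19:7217567-7217866): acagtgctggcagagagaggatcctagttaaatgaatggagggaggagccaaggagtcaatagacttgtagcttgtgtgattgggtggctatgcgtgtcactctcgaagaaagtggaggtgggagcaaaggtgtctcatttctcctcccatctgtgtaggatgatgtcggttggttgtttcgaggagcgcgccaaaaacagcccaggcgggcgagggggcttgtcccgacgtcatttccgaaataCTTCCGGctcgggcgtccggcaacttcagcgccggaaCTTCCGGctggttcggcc
Cox8b (chr7:140900397-140900696): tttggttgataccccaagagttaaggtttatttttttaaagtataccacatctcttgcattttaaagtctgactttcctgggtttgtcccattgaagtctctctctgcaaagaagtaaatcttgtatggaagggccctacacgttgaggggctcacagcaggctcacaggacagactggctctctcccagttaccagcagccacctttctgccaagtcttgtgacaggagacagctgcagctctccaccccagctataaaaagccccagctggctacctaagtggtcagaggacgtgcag
The Cox6a1 window, with 63.0% GC, held 5 matches, to the NRF1, ETS and SP1 motifs. Cycs (65.0% GC) held 1 SP1 match, Cox8a (56.0% GC) held 2 ETS matches, and Cox8b (48.3% GC) held none of these letters. Such a match describes the sequence only. Of the 46 tested genes, 33 had a RefSeq window, and Cox6a2 was not among them. The NRF1 motif was in 10 of the 33 (30.3%), against 5.19% of all 27025 genes with a window. The ETS motif was in 12 (36.4%), against 9.93%. The 27025 genes were not filtered by FPKM, unlike the 33, so the shares come from unlike sets. The YY1 motif was in 2 (6.06%), against 3.19%, the SP1 motif in 11 (33.3%), against 38.2%, and the ERRA motif in 2 (6.06%), against 1.43%.

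The other isoform pairs did not pass the test of their ratio. Cox7a1 is the muscle form and Cox7a2 the general form of subunit 7a. Cox7a1 had 628, 649, 612, 897 and 709.9 FPKM in PAMH hearts, against 707, 691, 696, 623 and 642 FPKM in control hearts. Cox7a2 had 211, 198, 221, 254 and 249 FPKM in PAMH hearts, against 206, 201, 197, 197 and 206 FPKM in control hearts. For both genes the groups overlapped and PAMH replicate 4 was highest, and the log2 fold changes were 0.04 for Cox7a1 and 0.16 for Cox7a2 (adjusted p = 0.815 and 0.219). The FPKM ratio of Cox7a1 to Cox7a2 was 3.08 ± 0.317 in PAMH and 3.33 ± 0.185 in control hearts (SD, n = 5 each). Its log2 difference was -0.12, with an exact permutation p of 0.151 and an adjusted p of 0.286 over the 6 pairs.

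For subunit 8, Cox8b is the muscle form and Cox8a the general form in the mouse. Cox8b had 637, 686, 671, 899.6 and 733 FPKM in PAMH hearts, against 729, 713, 719, 739 and 692 FPKM in control hearts. Cox8a had 99.4, 79.5, 91.2, 112 and 87.6 FPKM in PAMH hearts, against 88.0, 89.3, 81.7, 82.3 and 77.0 FPKM in control hearts. The control values of Cox8b lay close together, whereas the PAMH values spanned them on both sides. Log2 fold changes were 0.00 for Cox8b and 0.16 for Cox8a (adjusted p = 0.987 and 0.308). The ratio of Cox8b to Cox8a was 7.76 ± 0.893 in PAMH and 8.61 ± 0.450 in control hearts (SD, n = 5 each), a log2 difference of -0.15 with an exact permutation p of 0.103 and an adjusted p of 0.286. The FPKM ratio of muscle to general form was lower in the PAMH mean for subunits 6a, 7a and 8, and passed the test for 6a alone. Whether the pairs differed from each other was not tested.

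Cox4i1 and Cox4i2 encode the forms of subunit 4, of which Cox4i2 is the one known to be induced by low oxygen in lung. Cox4i1 had 435, 518, 579.7, 518 and 675 FPKM in PAMH hearts, against 376, 558, 679, 457 and 455 FPKM in control hearts. Cox4i2 had 5.43, 5.84, 5.61, 9.33 and 8.37 FPKM in PAMH hearts, against 6.41, 6.73, 5.85, 6.59 and 5.45 FPKM in control hearts. The replicates of Cox4i1 spread widely in both groups, and Cox4i2 stood out in PAMH replicates 4 and 5. Neither passed the test, with log2 fold changes of 0.12 and 0.11 (adjusted p = 0.658 and 0.656). The log2 ratio of Cox4i2 to Cox4i1 was -6.12 ± 0.297 in PAMH and -6.11 ± 0.357 in control hearts, a difference of -0.01 (exact permutation p = 0.937, also after adjustment).

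Cox5a and Cox5b encode subunits on the matrix side of complex IV. Cox5a had 203, 194, 162, 238 and 195 FPKM in PAMH hearts, against 190.0, 192, 176, 175 and 166 FPKM in control hearts. Cox5b had 227, 229, 195, 281 and 256 FPKM in PAMH hearts, against 211, 245, 222, 198 and 204 FPKM in control hearts. PAMH replicate 4 was highest for both and the groups overlapped, with log2 fold changes of 0.13 and 0.13 (adjusted p = 0.413 and 0.445). The other 5 tested genes of the complex were Cox6b1, Cox6c, Cox7b, Cox7c and Cox7a2l. Their log2 fold changes were 0.06 to 0.15, with a lowest adjusted p of 0.266. Cox7a2l, whose protein helps to join complexes III and IV into supercomplexes, had the widest interval of all 46 genes, -0.34 to 0.50 about a log2 fold change of 0.08.

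The 4 genes below the filter included the testis forms of complex IV subunits. Cox6b2 averaged 0.307 ± 0.178 FPKM in PAMH and 0.449 ± 0.0737 FPKM in control hearts (SD, n = 5 each). Cox7b2 was listed at 0 in all PAMH hearts and in 3 control hearts, with 0.448 and 0.156 FPKM in the other two. Cox8c, a testis form, and the second table identifier that carries the symbol Atp5o were listed at 0 in all samples.

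No complex II gene passed the test. Sdha, the flavoprotein that oxidises succinate, had 196, 185, 154, 188 and 178 FPKM in PAMH hearts, against 157, 175, 162, 166 and 154 FPKM in control hearts. PAMH replicates 1, 2, 4 and 5 were above every control heart while PAMH replicate 3 was near the lowest control. Sdha averaged 180.1 ± 15.9 FPKM in PAMH and 163 ± 8.46 FPKM in control hearts (SD, n = 5 each), and its log2 fold change of 0.14 (95% confidence interval -0.02 to 0.30, adjusted p = 0.273) was the largest of the complex. Sdhb, the iron-sulfur subunit, had 308, 283, 274, 337 and 300.2 FPKM in PAMH hearts, against 302, 299.5, 289.7, 272 and 294 FPKM in control hearts. Its groups overlapped over most of their range, with a log2 fold change of 0.04 (95% confidence interval -0.11 to 0.19, adjusted p = 0.739). The membrane anchors Sdhc and Sdhd had log2 fold changes of 0.10 and 0.12 (adjusted p = 0.556 and 0.313). FPKM summed over the 4 genes were 840 ± 77.2 in PAMH and 784 ± 19.3 in control hearts (SD, n = 5 each).

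The assembly factors of complex II were present at far lower FPKM than its subunits. Sdhaf1, which helps to insert the iron-sulfur clusters of Sdhb, was higher in PAMH hearts and was 1 of 4 complex II assembly genes to pass. It had 8.16, 9.95, 7.95, 9.34 and 7.88 FPKM in PAMH hearts, against 6.61, 6.09, 5.39, 5.54 and 5.47 FPKM in control hearts. The groups did not overlap. Sdhaf1, at chr7:30321406-30323895 (mm10), averaged 8.66 ± 0.935 FPKM in PAMH and 5.82 ± 0.523 FPKM in control hearts (SD, n = 5 each), a log2 fold change of 0.50 (SE 0.08, adjusted p = 0.00654), and it passed in all 23 alternatives tried. It overlaps a gene on the other strand that was listed at 0. Sdhaf2, which attaches the flavin to Sdha, averaged 3.56 ± 0.371 FPKM in PAMH and 2.80 ± 0.152 FPKM in control hearts (SD, n = 5 each), with a log2 fold change of 0.26 and an adjusted p of 0.0564, and its groups did not overlap. The median log2 fold change of the 4 assembly genes was 0.22. Beside these, 4.95% of all tested genes were called higher, and 6.74% had PAMH above without overlap.

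Complex III, the cytochrome bc1 complex, had no gene past the test. Cyc1, which encodes the haem-bearing cytochrome c1, had 241, 240.4, 204, 297 and 231 FPKM in PAMH hearts, against 229, 248, 223, 206 and 226 FPKM in control hearts. Uqcrfs1, the Rieske iron-sulfur protein, had 445, 428, 363, 461 and 420.1 FPKM in PAMH hearts, against 406, 415, 403, 405 and 411 FPKM in control hearts. In both genes PAMH replicate 4 was highest and PAMH replicate 3 lowest, with the control hearts between them. The log2 fold changes were 0.09 with an interval of -0.11 to 0.29 for Cyc1, and 0.05 with -0.10 to 0.20 for Uqcrfs1. Uqcrb, a small subunit that binds near the ubiquinone site, had the largest log2 fold change of the complex. It had 247, 244, 288, 229 and 272 FPKM in PAMH hearts, against 256, 203, 225, 247 and 243 FPKM in control hearts. Unlike the genes just named, it was highest in PAMH replicate 3, and its log2 fold change was 0.12 (95% confidence interval -0.06 to 0.31, adjusted p = 0.395). The other 6 genes, the core proteins Uqcrc1 and Uqcrc2 and the small subunits Uqcr10, Uqcr11, Uqcrh and Uqcrq, had log2 fold changes of -0.03 to 0.12, with a lowest adjusted p of 0.387. The FPKM of the 9 genes summed to 2520 ± 203 in PAMH and 2380 ± 33.3 in control hearts (SD, n = 5 each).

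None of the 6 complex III assembly genes passed, and the log2 fold changes of all 6 were positive with a median of 0.18 (4 of 6 were positive with quantile normalization and 5 without PAMH replicate 4). Lyrm7, which hands the Rieske protein on to the complex, averaged 3.36 ± 0.805 FPKM in PAMH and 2.41 ± 0.223 FPKM in control hearts (SD, n = 5 each), with a log2 fold change of 0.34 and an adjusted p of 0.0997.

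Cytochrome c, the mobile carrier between complexes III and IV, had the lowest log2 fold change of the 46 genes. Cycs, at chr6:50562563-50566538 (mm10, minus strand), had 146, 142, 147, 142 and 139 FPKM in PAMH hearts, against 169, 145, 153, 172 and 172 FPKM in control hearts. The PAMH hearts lay within a narrow range, below 4 of the 5 control hearts, and the groups overlapped only at control replicate 2. Cycs averaged 143 ± 2.93 FPKM in PAMH and 162 ± 12.5 FPKM in control hearts (SD, n = 5 each), a log2 fold change of -0.18 (95% confidence interval -0.32 to -0.03, adjusted p = 0.124). It did not pass the test as deposited, but was called lower with median ratio scaling (log2 fold change -0.26, limma adjusted p = 0.0406) and with quantile normalization (-0.29, adjusted p = 0.0463). Over the 23 alternatives its adjusted p was 0.0406 to 0.292.

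Complex V, ATP synthase, likewise had no gene past the test. Atp5a1 and Atp5b encode the alpha and beta subunits that form the catalytic head, and Atp5c1 the gamma subunit of the central stalk. Atp5a1 had 868, 872, 659.6, 879 and 771 FPKM in PAMH hearts, against 731, 870.3, 767, 735 and 728 FPKM in control hearts. Atp5b had 765, 759.8, 638, 794 and 699.9 FPKM in PAMH hearts, against 665, 775, 687, 689 and 648 FPKM in control hearts. For both genes PAMH replicate 4 was highest, control replicate 2 was level with the upper PAMH hearts, and PAMH replicate 3 was lowest. Their log2 fold changes were 0.07 and 0.08 (adjusted p = 0.650 and 0.568). Atp5c1 had 514, 390.3, 383, 563 and 407 FPKM in PAMH hearts, against 492, 404, 498, 370.5 and 375 FPKM in control hearts. Its replicates fell at high and low levels in both groups, and the log2 fold change was 0.07 (95% confidence interval -0.21 to 0.35, adjusted p = 0.772).

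The largest log2 fold change of complex V belonged to Atp5mpl, a small membrane subunit of the synthase. It had 98.7, 94.8, 99.4, 155 and 137 FPKM in PAMH hearts, against 98.5, 92.9, 94.8, 93.8 and 98.5 FPKM in control hearts. PAMH replicates 4 and 5 were high, while the other 3 PAMH hearts were within or just above the control range. Atp5mpl averaged 117 ± 27.4 FPKM in PAMH and 95.7 ± 2.66 FPKM in control hearts (SD, n = 5 each), a log2 fold change of 0.26 (95% confidence interval -0.02 to 0.54, adjusted p = 0.242), and without PAMH replicate 4 the log2 fold change was 0.15.

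Atp5g1, Atp5g2 and Atp5g3 encode identical mature c subunits of the membrane rotor with different import sequences. Atp5g3 was the most abundant, with 371 ± 68.9 FPKM in PAMH and 360.0 ± 26.1 FPKM in control hearts (SD, n = 5 each), followed by Atp5g1 with 130.2 ± 18.6 FPKM in PAMH and 119 ± 8.0 FPKM in control hearts (SD, n = 5 each). Atp5g2 averaged 64.1 ± 9.59 FPKM in PAMH and 58.0 ± 1.88 FPKM in control hearts (SD, n = 5 each). The order was the same in all 10 samples. The log2 ratio to Atp5g3 differed by 0.10 for Atp5g1 (exact permutation p = 0.190, adjusted p = 0.286) and by 0.10 for Atp5g2 (p = 0.429, adjusted p = 0.514). The other 10 genes had log2 fold changes of -0.03 (Atp5o) to 0.21 (Atp5d), with a lowest adjusted p of 0.291. None of the 6 measured complex V assembly and inhibitor genes passed, and their median log2 fold change was 0.01, with 3 of 6 positive (0 of 6 with quantile normalization). Among them Atpif1, the inhibitor that holds the synthase when the proton gradient fails, averaged 47.5 ± 5.34 FPKM in PAMH and 43.4 ± 4.41 FPKM in control hearts (SD, n = 5 each), with a log2 fold change of 0.12 and an adjusted p of 0.448.

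The subunit genes spread more between PAMH hearts. Their median coefficient of variation was 13.7% in PAMH and 6.60% in control hearts, beside 15.5% in PAMH and 10.2% in control hearts over all tested genes. PAMH replicate 4 had the highest value of the 10 samples in 37 of the 46 genes, and 30.8% of all tested genes were highest there. It also had the lowest value for 20.4% of all tested genes, but for 1 of the 46. PAMH replicate 3 had the lowest in 20 of 46, against 13.0% of all tested genes. Relative to the control mean, the median log2 deviation of the 46 genes was 0.07, 0.04, -0.09, 0.34 and 0.11 in PAMH replicates 1 to 5, while that of all tested genes was 0.13, 0.08, 0.01, 0.10 and 0.06. PAMH replicate 4 was high in complexes III, IV and V (0.32, 0.38 and 0.40), and in complex II PAMH replicates 1 and 4 were both high (0.24 and 0.22). PAMH replicate 3 was at or below -0.08 in all 4 complexes.

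These samples also stood at the ends of the cardiomyocyte marker sums, with 14786.5 FPKM in PAMH replicate 4 and 8887 FPKM in PAMH replicate 3. Actc1 alone made up 6382 FPKM of the first sum and 3046 FPKM of the second. Among PAMH hearts, Actc1, Myh6, Myl2, Myl3 and Tnni3 were highest in PAMH replicate 4 and lowest in PAMH replicate 3. Tnnt2 (398 FPKM) and Pln (173 FPKM) were instead lowest in PAMH replicate 4, and Ryr2 was second lowest there (23.8 FPKM). The part of marker content, of the few genes above 0 and of the erythroid signal in the levels of PAMH replicate 4 was not tested. Without PAMH replicates 4 and 5, 29 of the 46 log2 fold changes were positive, against 69.3% over all tested genes. The median of the 46 was then 0.01, against 0.07 over all tested genes. Without PAMH replicate 3, 45 of the 46 were positive, with a median of 0.13, against 68.1% positive over all tested genes. In that setting 10 of 46 had an unadjusted limma p under 0.05, against 29.6% of all tested genes.

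**Figure D3:**
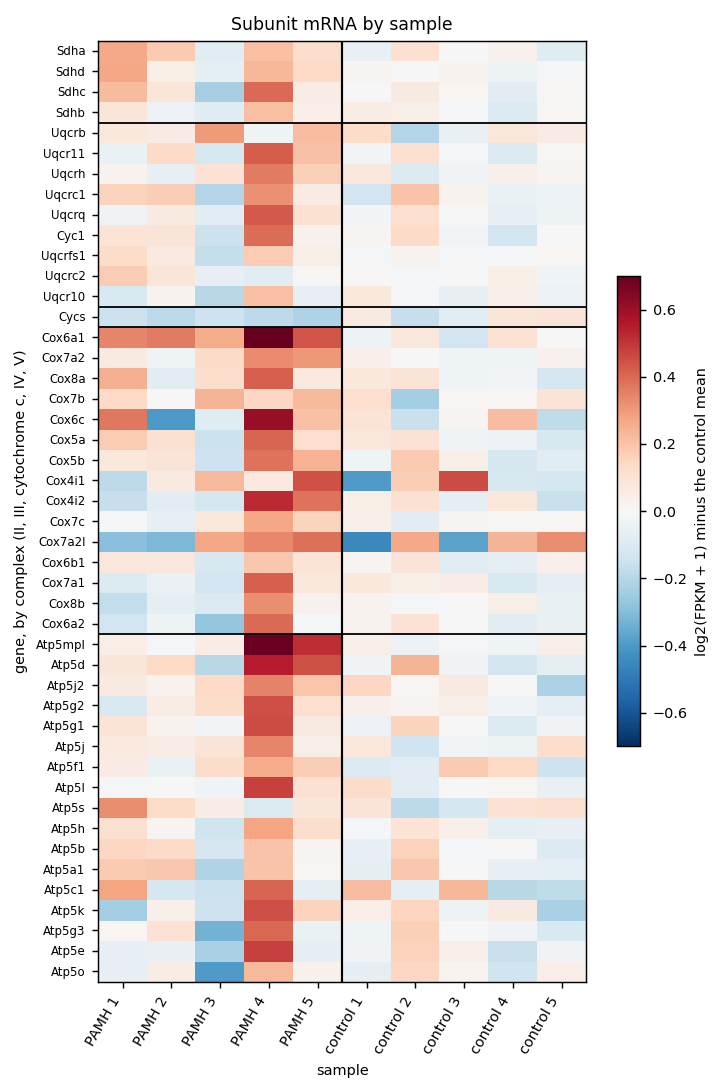
Heat map of log2(FPKM + 1) minus the control mean for the 46 tested genes in 5 PAMH and 5 control hearts, with rows grouped by complex and ordered by fold change. The column of PAMH replicate 4 holds the highest value in 37 rows, Cox6a1 is above the control mean in all 5 PAMH columns, and Cycs is below it in all 5.

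**Figure D4:**
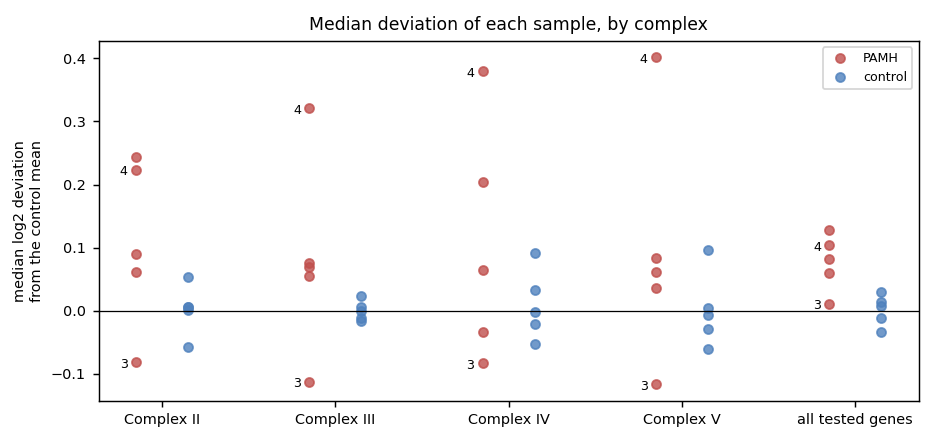
Median log2 deviation from the control mean for the genes of each complex and for all tested genes, with a point for each sample and the numbers 3 and 4 marking those PAMH replicates. PAMH replicate 4 was at 0.32 to 0.40 in complexes III to V but at 0.10 over all tested genes, and control samples stayed between -0.06 and 0.10.

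The genes around the complexes were compared next. Assembly factors of complex IV, which deliver copper and haem and guide the subunits together, had 2 of 26 tested genes higher and none lower, with 21 positive values and a median of 0.17, beside 4.95% called higher, 1.24% called lower, 67.3% positive and a median of 0.07 over all tested genes. The 26 include Ndufa4, which the symbol rule left out of the subunit genes (log2 fold change 0.31, not past the test). With quantile normalization 15 of the 26 were positive, 2 were called lower and none higher. With median ratio scaling 18 were positive, 1 was called lower and none higher. Cox11, a copper chaperone of the catalytic core, had 11.3, 8.57, 8.50, 9.56 and 8.92 FPKM in PAMH hearts, against 7.58, 6.89, 6.96, 7.45 and 7.57 FPKM in control hearts. All PAMH hearts were above all control hearts, as in 6.74% of all tested genes. The log2 fold change was 0.32 (SE 0.08, adjusted p = 0.0394), and Cox11 lost the call in 13 of 23 alternatives (adjusted p up to 0.131). Without a stated strand setting, part of its reads cannot be told from those of Tom1l1 on the other strand, which averaged 1.86 FPKM. Coa4, a small assembly protein of the intermembrane space, had 2.57, 2.45, 2.27, 2.81 and 3.16 FPKM in PAMH hearts, against 1.75, 1.86, 2.41, 1.71 and 1.82 FPKM in control hearts. Its groups overlapped at control replicate 3. The log2 fold change was 0.33 (SE 0.09, adjusted p = 0.04997), at the edge of the threshold, and the call was lost in 14 of 22 alternatives (adjusted p up to 0.152). Cox19, a further copper-linked factor, averaged 8.55 ± 1.65 FPKM in PAMH and 6.14 ± 0.646 FPKM in control hearts (SD, n = 5 each) and did not pass (log2 fold change 0.41, adjusted p = 0.0550). Sco1, which delivers copper to the catalytic core, averaged 4.78 ± 0.581 FPKM in PAMH and 3.75 ± 0.212 FPKM in control hearts (SD, n = 5 each), with a log2 fold change of 0.28 and an adjusted p of 0.0620. Coa5, a further assembly factor, averaged 31.9 ± 2.26 FPKM in PAMH and 27.1 ± 0.736 FPKM in control hearts (SD, n = 5 each), with a log2 fold change of 0.22 and an adjusted p of 0.0636, and its groups did not overlap. Higd1a, a small inner membrane protein induced by low oxygen, had a negative value and is named after its values were seen. It averaged 12.5 ± 1.48 FPKM in PAMH and 15.7 ± 1.61 FPKM in control hearts (SD, n = 5 each), with a log2 fold change of -0.30 (SE 0.09, adjusted p = 0.0694), and was called lower in 6 of 23 alternatives, among them without PAMH replicate 4 (log2 fold change -0.37, adjusted p = 0.0210, over all alternatives 0.0159 to 0.155).

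Regulators of respiratory genes split by member. Of 13 on the list 11 were tested, and 1 passed as higher. Over all tested genes 4.95% were called higher, and 6.74% had PAMH above without overlap. Esrra, which encodes the oestrogen-related receptor alpha, a nuclear receptor that binds many genes of oxidative metabolism, had 28.0, 27.8, 25.1, 33.3 and 27.0 FPKM in PAMH hearts, against 18.2, 21.4, 19.8, 20.7 and 20.6 FPKM in control hearts. The groups were separate, with PAMH replicate 4 highest. Esrra, at chr19:6910977-6921813 (mm10), averaged 28.2 ± 3.02 FPKM in PAMH and 20.1 ± 1.24 FPKM in control hearts (SD, n = 5 each), a log2 fold change of 0.46 (SE 0.08, adjusted p = 0.00808), and it passed in all 23 alternatives tried. A stretch of 73 bases overlaps Trmt112 on the other strand, which averaged 6.24 FPKM.

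Ppargc1a, the coactivator PGC-1 alpha that works with this receptor, had 14.8, 14.96, 13.4, 10.8 and 10.1 FPKM in PAMH hearts, against 18.1, 14.7, 13.8, 17.1 and 25.3 FPKM in control hearts. PAMH replicates 4 and 5 were lowest and control replicate 5 was well above the rest, and the log2 fold change was -0.43 (SE 0.16, adjusted p = 0.115). Tfam, the packaging and transcription factor of mitochondrial DNA, averaged 6.08 ± 1.17 FPKM in PAMH and 5.03 ± 0.227 FPKM in control hearts (SD, n = 5 each), with a log2 fold change of 0.22 and an adjusted p of 0.228. Nrf1 and Gabpb1 were below the filter, and are named after their values were seen because the promoter motifs above concern their proteins. Nrf1 averaged 0.480 ± 0.153 FPKM in PAMH and 0.381 ± 0.0372 FPKM in control hearts (SD, n = 5 each). Gabpb1 averaged 0.705 ± 0.169 FPKM in PAMH and 0.758 ± 0.111 FPKM in control hearts (SD, n = 5 each). Gabpa and Yy1, whose motifs are also listed above, were tested and did not pass. Their log2 fold changes were -0.11 and 0.04 (limma adjusted p = 0.568 and 0.791). The median log2 fold change of the 11 tested regulators was 0.03, with 7 positive, and -0.06 with 4 positive under quantile normalization.

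**Figure D5:**
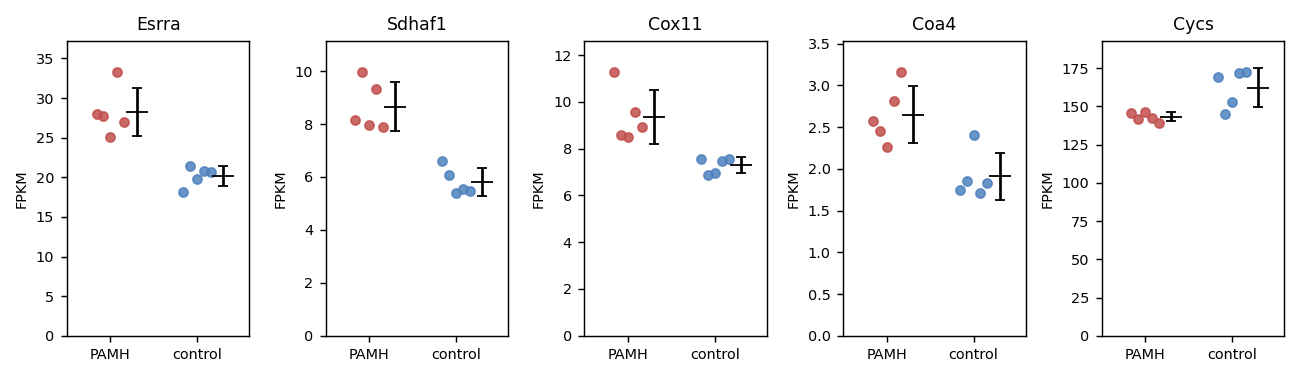
FPKM of Esrra, Sdhaf1, Cox11, Coa4 and Cycs in 5 PAMH and 5 control hearts, with a point for each sample and bars for the mean ± SD. PAMH and control hearts were separate for Esrra, Sdhaf1 and Cox11, and overlapped for Coa4 and Cycs.

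Other cell types were represented by marker lists, to be read beside 4.95% called higher and 1.24% called lower over all tested genes. Skeletal muscle markers summed to 1.09 to 2.48 FPKM in PAMH and 0.810 to 1.31 FPKM in control hearts, and none was above the filter. Smooth muscle and pericyte markers summed to 127 to 171 FPKM in PAMH and 76.2 to 116 FPKM in control hearts, with 1 of 5 tested higher (Acta2, log2 fold change 1.31) and the other 4 between -0.04 and 0.07. Macrophage markers summed to 54.4 to 66.4 FPKM in PAMH and 48.4 to 55.9 FPKM in control hearts, with 1 of 5 higher (Cd68, 0.46). Of the other macrophage markers C1qa was at 0.21, and Cd163 (-0.42), Adgre1 (-0.06) and Csf1r (-0.04) were negative, for a median of -0.04. Brown adipocyte markers summed to 17.2 to 23.2 FPKM in PAMH and 13.2 to 15.7 FPKM in control hearts. Of those 3, Cidea was higher, Elovl3 was listed at 0 in all samples and Ucp1 at 0 in all PAMH hearts. White adipocyte markers summed to 0 to 1.21 FPKM in PAMH and 0.0574 to 0.404 FPKM in control hearts, with Lep listed at 0 in all. Epicardial and mesothelial markers summed to 2.32 to 5.53 FPKM in PAMH and 0.377 to 1.06 FPKM in control hearts, and the 1 tested, Upk3b, was higher. Below the filter, Msln and Upk1b also lay above the control range in every PAMH heart, while the groups of Wt1 overlapped. Atrial markers summed to 78.7 to 217 FPKM in PAMH and 46.8 to 129 FPKM in control hearts, with none past the test. Nppa, the 1 of 4 tested, averaged 150.0 ± 65.0 FPKM in PAMH and 83.3 ± 31.8 FPKM in control hearts (SD, n = 5 each). The other atrial markers Myl4, Myl7 and Sln averaged 0.174, 0.397 and 0 FPKM in PAMH and 0.204, 0 and 0.00788 FPKM in control hearts. Endothelial markers summed to 62.6 to 80.2 FPKM in PAMH and 72.6 to 90.0 FPKM in control hearts, with 1 of 6 lower (Cldn5, -0.88), and the other 5 were at -0.24 to 0.13. Fibroblast markers summed to 68.6 to 90.7 FPKM in PAMH and 76.6 to 88.8 FPKM in control hearts, with none past the test. The part of these markers in the Cox6a1, Esrra, Sdhaf1, Cox11 and Coa4 differences was not tested.

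The mitochondrial genome encodes 6 further subunits of complexes III to V. None of those 6 genes passed the test, all 6 log2 fold changes were negative, and their median was -0.07. Over all tested genes 67.3% were positive, with a median of 0.07. Rescaling to the same FPKM sum left 5 of the 6 mitochondrial genes negative with a median of -0.02. All 6 stayed negative with median ratio scaling (median -0.16), at equal sums outside the mitochondrial genome (-0.09) and without PAMH replicate 4 (-0.06). Quantile normalization left 1 negative and 1 positive, with the others at 0. That setting gives genes of equal rank the same value, so a gene that keeps its rank is put at 0 by construction. As deposited, the values ran from -0.16 for mt-Atp8 (adjusted p = 0.210) to -0.04. All genes of the mitochondrial genome held 54.2% ± 1.83 of the FPKM sum in PAMH and 56.2% ± 0.611 in control hearts (SD, n = 5 each). The summed FPKM of the 6 mitochondrial genes was 18.6 ± 2.62 times that of the nuclear complex III to V genes in PAMH and 20.4 ± 1.14 times in control hearts. The PAMH range of 15.2 to 22.6 enclosed the control range of 18.6 to 21.7.

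Complex I feeds electrons from NADH into the same chain. None of its 36 nuclear subunit genes on the list passed the test, 30 values were positive, and the median log2 fold change was 0.07, beside 0.10 for the 46 genes of complexes II to V with cytochrome c. With median ratio scaling 17 of the 36 values were positive, and with quantile normalization 9. Ndufa5, a subunit of the peripheral arm, had groups that did not overlap and an adjusted p of 0.0688. Whether the complexes differed from each other was not tested.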

How the data were processed

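RNA-seq libraries of 10 mouse hearts were compared. The submitters' processing notes name build mm10, HISAT2 2.2.1 and HTSeq 0.13.5 among other tools, with no role for any. What computed the FPKM, with which annotation, strand setting and treatment of multiply mapped reads, is not given in the sources used here.

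FPKM for 55335 genes were deposited by the authors, and 55154 of the identifiers were found in GENCODE vM21. More than 6 decimals occurred in 99.1% of genes with several transcripts and 1.27% of genes with 1 (means of at least 1 FPKM), a pattern that sums over transcripts would leave, though how the values were computed was not tested. Whole reads could not be recovered, and neither depth nor counting error is known. A value of 0 is given only as listed at 0.

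FPKM were transformed as log2(FPKM + 1), on which fold changes of low genes are understated. The 9439 genes averaging 1 FPKM or more were tested with limma 3.58.1 in R 4.3.3 (group term, intensity trend, 2-sided, Benjamini-Hochberg adjustment over all tested genes, threshold 0.05). Isoform ratios were tested by exact 2-sided permutation of 252 regroupings, adjusted over 6 pairs. The fit was tested on simulated data. Promoter windows came from RefSeq (GRCm38.p6). The members, lists, pairs and tests were chosen with earlier results of these data known. Values in every sample are given for genes past the test, the isoform pairs, the gene of largest change in each complex and a panel of core subunits, and for list genes past the test, with up to 3 others per list by p. Alternatives were pseudocount 0.1, other filters and scalings, sample weights, robust fitting, the replicate block and omission of samples. Removal of a transcript length and GC trend (loess, span 0.5) was chosen after seeing the data.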

Additional observations from a re-analysis of the deposited data

Results flagged for a closer look

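Within groups of 5, 104 sets of values were checked for a sample far from the others, where chance gives about 1 in 20, and 8 were found. In 5 of them PAMH replicate 4 was far above the other PAMH hearts. Cox6a1 had 96.9 FPKM there, against 65.0 to 73.8 FPKM in the other PAMH hearts. Atp5j, a stalk subunit of ATP synthase, had 107 FPKM, against 87.0 to 90.0 FPKM. Atp5g1 had 163 FPKM, against 117 to 127 FPKM. Atp5l, a membrane subunit, had 51.9 FPKM, against 36.3 to 39.9 FPKM. Atp5e, the epsilon subunit of the central stalk, had 179 FPKM, against 109 to 124 FPKM.

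The other 3 concerned control replicate 2. Cox7c was low there, at 237 FPKM against 251.9 to 256 FPKM in the other control hearts. Atp5d, the delta subunit of the central stalk, was high, at 162 FPKM against 126 to 135 FPKM, and Atp5a1 was high, at 870.3 FPKM against 728 to 767 FPKM.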

How the results depend on the processing

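Over all genes, 584 calls became 264 with no filter, 1214 with sample weights, 360 without PAMH replicates 4 and 5, and 278 to 1126 when 1 sample was left out (1126 without PAMH replicate 3). The replicate block gave 239, with Cox6a1 still called (adjusted p = 0.0367, over all alternatives 0.00509 to 0.0752). The labels do not say whether the replicate numbers pair the samples. Deviations of same-numbered samples correlated at -0.195 to 0.16, and 3 of 10 samples correlated best with their own number. With so few samples this cannot decide whether same-numbered samples shared a litter or day. Among the 46 genes, the number higher was 0 with no filter and with median ratio scaling, and 0 to 1 when 1 sample was left out. The number lower was 1 (Cycs) with median ratio scaling and with quantile normalization. The Cox6a2 to Cox6a1 log2 ratio differed by -0.47 without PAMH replicates 4 and 5 and by -0.46 with the replicate block, and passed the threshold in neither (the exact p was in each the smallest possible, 0.0179 for 3 against 5 samples and 0.0625 for 5 pairs).

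Among the other genes of the panel, isoform pairs and largest changes, no call turned, but small values changed sign. Median ratio scaling gave -0.0088 for Atp5a1, -0.0068 for Atp5b, -0.012 for Atp5c1, -0.055 for Atp5g3, -0.039 for Cox7a1, -0.040 for Sdhb, -0.080 for Cox8b and -0.034 for Uqcrfs1. Quantile normalization gave medians of -0.017 for complex II and -0.024 for complex III, and -0.048 for Atp5c1, -0.093 for Atp5g3, -0.093 for Sdhb, -0.028 for Cox4i1, -0.0024 for Cox4i2, 0.031 for Cox6a2, -0.015 for Cox7a1, -0.024 for Cyc1, -0.018 for Atpif1, -0.00081 for Sdha, -0.080 for Uqcrfs1 and 0.026 for the Cox4i2 to Cox4i1 ratio. Without PAMH replicates 4 and 5 the values were -0.071 for Atp5g3, -0.12 for Cox4i2, -0.092 for Cox7a1, -0.11 for Cox8b and -0.015 for Sdhb. Cox6a2 was 0.038 at equal FPKM sums, and Cox8b was -0.014 at equal sums outside the mitochondrial genome. Sample weights gave -0.028 for Cox7a1 and -0.061 for Cox8b, and the length and GC trend -0.051 for Cox8b. Leaving out 1 sample gave -0.15 to 0.095 for the Cox4i2 to Cox4i1 ratio, -0.013 to 0.13 for Atp5c1, -0.065 to 0.12 for Atp5g3, -0.11 to 0.055 for Cox6a2, -0.048 to 0.089 for Cox7a1 and -0.077 to 0.047 for Cox8b. Among list genes not called as deposited, Cox19 was called higher in 6 alternatives, Coa5 in 4, Ndufa5 and Sco1 in 3, Sdhaf2 in 2, and Lyrm7, Cox10, Tfam and Ppargc1b in 1 each. Higd1a was called lower in 6, and Higd2a, Pet117, mt-Atp8 and Ndufab1 in 1 each. The cause was not tested.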
